A study of Mus musculus with 16 samples.

Results

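The transcripts of unperturbed mouse embryonic stem cells (ESCs) were profiled with Illumina bead arrays (Mouse WG-6 v2), and the wild-type arrays of the study are described here on their own. These are the 6 control samples of 16 in the series, numbered 1 to 6 as in their labels. The cells carry the genotype Prdm4+/+ on the 129/Sv strain background, and per the methods of the study they are CCE cells, an established ESC line. The deposited design assigns the 6 samples to 6 wild-type clones. It does not say whether these clones were derived separately, so the errors below measure the spread between the 6 samples, which may be narrower than that between independent lines. The labels give only standard culture, with no passage, date or slide, and the remaining 10 samples of Prdm4 null and Prdm4-EGFP clones enter only the scaling of the arrays. Each of 45281 probes had, on each array, a signal intensity and a detection p-value that compares it with the negative control beads of that array.

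ESCs are cultured descendants of the inner cell mass of the blastocyst. They divide rapidly and remain pluripotent through a network of transcription factors centred on Pou5f1 (Oct4), Sox2 and Nanog, with naive factors such as Esrrb, Tfcp2l1 and Klf proteins around it. Leukemia inhibitory factor (LIF), acting through Stat3, and BMP proteins, acting through Id genes, support self-renewal in mouse cultures, whereas FGF and Erk signalling primes the cells for differentiation. Cultures are heterogeneous, and a small and changing fraction of cells passes through a state that resembles the 2-cell embryo and expresses Zscan4 genes.

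A gene was counted as detected on an array when at least 1 of its probes had a detection p-value under 0.01. Of 19057 genes with a named probe, 7711 (40.5%) were detected on all 6 arrays, 10070 (52.8%) on none and 1276 (6.70%) on 1 to 5. Levels are log2 intensities after background correction and quantile normalization, and the brightest probe stands for a gene. On this scale the 19057 genes ran from 4.34 to 14.79. Genes detected on all 6 arrays had a median level of 8.45, those detected on 1 to 5 a median of 5.54, and those detected on none a median of 4.56. Between 14157 and 14629 probes (31.3 to 32.3%) were detected per array, with a median scanner signal of 61.0 to 73.4. Probes bind their targets with unequal efficiency, so the order of genes given below is an order of probe signals, and 2 genes that lie close together in it cannot be ranked by transcript number.

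**Figure D1:**
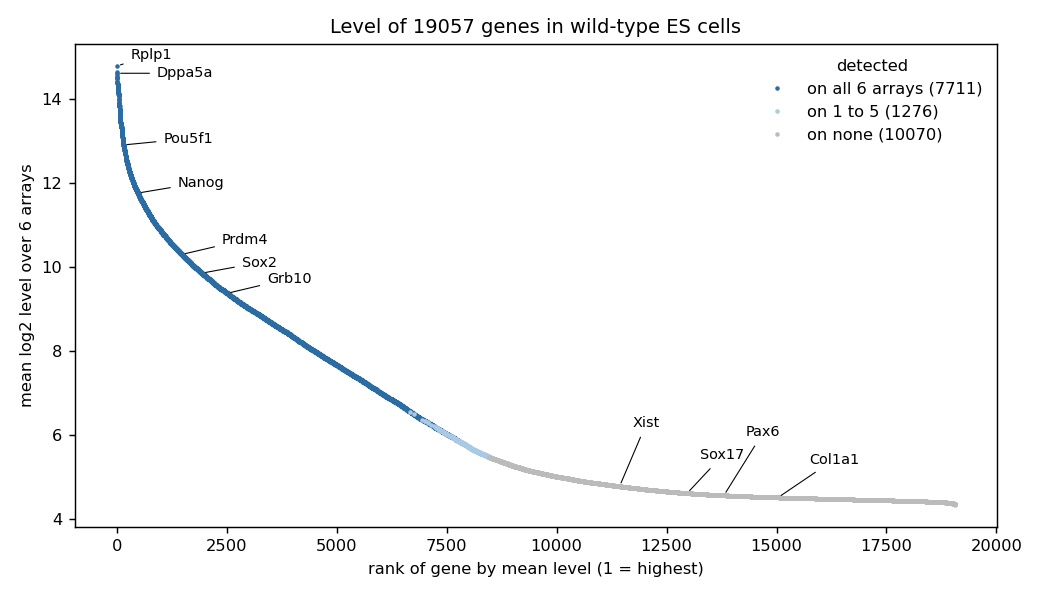
Mean log2 level over the 6 wild-type arrays (vertical axis) against the rank of each of 19057 genes (horizontal axis), 1 point a gene, coloured by the number of arrays on which it was detected. The 7711 genes detected on all 6 arrays fill the upper part of the curve, from Rplp1 at 14.79 downwards, and the 10070 genes detected on none form the flat tail.

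Absence of a signal is a statement about the probe. Among 9172 genes with more than 1 probe, 4794 were detected on all 6 arrays, and 2834 of these (59.1%) also had a probe detected on none. Of 9885 genes with a single probe 29.5% were detected on all 6 arrays, and of those with more than 1 probe 52.3%. Genes of basic metabolism and division were among those detected on none. They include Sdha, a subunit of succinate dehydrogenase, the cyclins Ccna2 and Ccnb2, Ndufs1, a subunit of respiratory complex I, and the mitochondrial ribosomal proteins Mrpl19, Mrpl32 and Mrps14. A gene described below as not detected may therefore still be transcribed.

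The start regions of detected and undetected genes differed in base composition. RefSeq promoters (build GRCm38.p6), each holding 250 bases before and 50 after a listed transcription start, were found for 14873 of 17933 protein-coding genes. The ratio of observed to expected CG dinucleotides had a median of 0.78 in 6283 genes detected on all 6 arrays, 0.62 in 999 genes detected on 1 to 5 and 0.34 in 7591 genes detected on none, against 0.61 over all genes. Promoters with at least 50% C and G and a ratio of at least 0.6 made up 73.6% of the first class and 28.0% of the last. Read the other way, 5.43% of the 2781 genes with a ratio of up to 0.2 were detected on all 6 arrays, rising over the bins to 71.3% of the 1185 genes with a ratio above 1. The motif TATAAA, searched on the strand of the gene with its first base 40 to 20 bases before the start, was present in 1.19% of genes detected on all 6 arrays, 4.56% of genes detected on none and 2.97% of all genes. Among the 200 genes with the highest levels, of which 176 had a promoter, it was present in 8 (4.55%), close to the share in genes detected on none. In the brightest of 5 equal groups of detected genes it was present in 21 of 1267 (1.66%). On either strand of the whole window it was found in 8.26% of genes detected on all 6 arrays, 19.5% of those detected on none and 14.1% of all genes. In the 200 highest the share was 17.05%. A match is a description of the sequence and does not show that a factor binds there.

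The composition can be read in individual starts. The stretches below run from 80 bases before the start to 20 after it, 5′ to 3′ on the strand of the gene, with CG pairs and, in its window, TATAAA in capitals. The first set holds the 3 highest genes with a single listed start, Tuba1b (alpha-tubulin, chr15:98934371-98934470, minus strand), Eef1a1 (the elongation factor that brings tRNA to the ribosome, chr9:78481705-78481804, minus strand) and Rpl41 (a ribosomal protein, chr10:128549149-128549248, minus strand), all detected on all 6 arrays and holding 10, 7 and 11 CG pairs in the stretch.
Tuba1b: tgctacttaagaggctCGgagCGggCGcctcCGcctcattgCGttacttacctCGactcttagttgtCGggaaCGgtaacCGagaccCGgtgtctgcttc
Eef1a1: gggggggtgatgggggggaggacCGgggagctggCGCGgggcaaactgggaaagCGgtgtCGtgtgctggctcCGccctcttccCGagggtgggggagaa
Rpl41: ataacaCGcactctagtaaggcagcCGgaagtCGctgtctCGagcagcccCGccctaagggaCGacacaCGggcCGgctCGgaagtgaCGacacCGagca

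The next set shows the 2 highest genes of the pluripotency network with a single listed start. Zfp42 (Rex1, a zinc finger protein and a classical marker of undifferentiated ESCs, chr8:43306990-43307089, minus strand) had 6 CG pairs in the stretch, and Gbx2 (a homeobox factor of naive cells, chr1:89931157-89931256, minus strand) had 9.
Zfp42: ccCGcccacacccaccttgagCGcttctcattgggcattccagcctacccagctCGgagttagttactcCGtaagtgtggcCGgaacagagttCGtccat
Gbx2: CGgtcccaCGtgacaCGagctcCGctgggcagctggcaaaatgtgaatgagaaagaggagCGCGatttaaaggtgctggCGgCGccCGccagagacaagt

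The last set shows undetected genes of tissue-restricted families. Krtap1-4 (chr11:99583658-99583757, minus strand) and Krtap1-5 (chr11:99580997-99581096, minus strand) encode proteins of the hair shaft, were detected on 0 of 6 arrays, and were picked as the first by name of their family with TATAAA in its window, which lies 31 bases before both starts. Olfr1 (chr11:73399476-73399575, minus strand), an odorant receptor of the nose, was also detected on none. These 3 stretches hold 1, 0 and 1 CG pairs.
Krtap1-4: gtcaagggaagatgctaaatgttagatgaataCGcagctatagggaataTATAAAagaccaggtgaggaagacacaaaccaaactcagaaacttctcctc
Krtap1-5: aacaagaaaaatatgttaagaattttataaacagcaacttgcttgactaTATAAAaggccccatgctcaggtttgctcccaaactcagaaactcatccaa
Olfr1: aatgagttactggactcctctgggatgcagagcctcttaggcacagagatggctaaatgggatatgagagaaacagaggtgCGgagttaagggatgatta

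The cell type on the labels was set beside its markers, and genes of pluripotency were detected almost throughout. The lists were chosen with earlier results of these data known, so these shares are descriptions and not an independent check of identity. Of 29 genes of the pluripotency network, 27 (93.1%) were detected on all 6 arrays against 40.5% of all genes, with a median level of 10.43 over the list against 5.12 over all genes. The brightest was Dppa5a, an RNA-binding protein of undifferentiated cells, which ranked 3rd of all genes and ran from 14.56 to 14.66 with a median of 14.61. Klf5, a Kruppel-like factor of self-renewal, ranked 104th (13.001, 13.34 and 13.59 as the lowest, median and highest of the 6 arrays). Pou5f1 ranked 151st (12.72, 12.93 and 13.001) and Esrrb, an orphan nuclear receptor of the naive network, 152nd (12.69, 12.90 and 13.08). Neighbours such as Pou5f1 and Esrrb overlapped on the 6 arrays and have no order.

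Zfp42 stood at 12.65 ± 0.12 (SD, n = 6) and Dppa4, a chromatin protein of pluripotent cells, at 12.59 ± 0.06. Tfcp2l1, another naive factor, followed at 11.96 ± 0.17, Sall4, a zinc finger partner of Pou5f1, at 11.88 ± 0.12, and Nanog at 11.76 ± 0.13. Sox2, the partner of Pou5f1 on DNA, was lower in signal, at 9.85 ± 0.10 (rank 1933), and Klf4 at 8.96 ± 0.23. The 27 detected genes of the list had a median SD of 0.14 and no array stood apart for the list as a whole, the median deviation from the mean of a gene lying between -0.06 and 0.07 on each array. Dppa3 (Stella), a maternal factor expressed in a subset of ESCs, and Nr0b1 (Dax1), a nuclear receptor, were detected on none. Prdm4 itself was detected on all 6 arrays at 10.17 to 10.40 with a median of 10.31, a rank of 1480.

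The primed epiblast is the later pluripotent tissue of the implanted embryo. Of 17 of its genes, 6 were detected on all 6 arrays, 2 on some and 9 on none, so that the shares on all 6 (35.3%) and on none (52.9%) were near those of all genes (40.5% and 52.8%). Dnmt3b, a de novo DNA methyltransferase, stood at 12.45 ± 0.09 (SD, n = 6), Tcf15 at 10.57 ± 0.13 and Nodal, a ligand of the TGF-beta family, at 10.51 ± 0.11. Otx2, a homeobox factor of the epiblast, was lower and more variable, at 7.09, 7.53 and 8.42 as the lowest, median and highest array. The undetected members included Fgf5, Fgf8, Cer1, Lef1 and Zic2, genes of the embryo around gastrulation.

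Lineage markers differed from list to list, where 40.5% of all genes were detected on all 6 arrays and 52.8% on none. None of 13 neuroectoderm genes, Pax6, Sox1 and Nes among them, was detected on any array. Of 15 genes of mesoderm and definitive endoderm, 12 (80%) were detected on none, including Eomes, Mixl1 and Gsc. Hhex was detected on all 6 arrays (7.35 ± 0.14 (SD, n = 6)), and Meox1 and Kdr on 3. Primitive and visceral endoderm, the extraembryonic layer that forms the yolk sac, gave 6 of 20 genes on all 6 arrays and 11 on none (55%, against 52.8% of all genes). These 6 were Lama1, a laminin chain, at 10.15 ± 0.14, the collagen Col4a1 at 7.63 ± 0.24, the factor Sox7 at 7.22 ± 0.24, the endocytic proteins Lrp2 at 7.20 ± 0.35 and Amn at 6.89 ± 0.29, and the adaptor Dab2 at 6.10 ± 0.39. The factors Gata4, Sox17 and Foxa2 were detected on none and Gata6 on 1 array.

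Trophoblast genes, which mark the placental lineage, were detected on all 6 arrays in 5 of 16 cases and on none in 8 (50%, again near the 52.8% of all genes), led by Tfap2c at 9.57 ± 0.32 (SD, n = 6) and the keratin Krt8 at 7.10 ± 0.22. The determinants Cdx2, Elf5 and Gata3 were detected on none. This list held the widest spread of these lineages, with a median SD of 0.32 in its 5 detected genes and a median deviation of 0.33 on array 1 and -0.40 on array 2.

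Of the markers of other cell types that a culture might contain, few were detected, whereas 40.5% of all genes were detected on all 6 arrays and 52.8% on none. Of 15 fibroblast genes, which would mark feeder cells, 1 was detected on all 6 arrays. This was Thy1, a surface glycoprotein, at 8.88 to 9.36 with a median of 9.15. The fibrillar collagens Col1a1, Col1a2 and Col3a1, and Postn, Lum and Pdgfrb, were detected on none, and Twist1 and Acta2 on 2 arrays. Among 9 blood genes none was detected on all 6 arrays, and Ptprc, Spi1 and Hba-a1 were detected on none. Liver (1 of 10, Trf at 5.79 ± 0.11 (SD, n = 6)), mature neuron and glia (1 of 11, Rbfox3 at 6.18 ± 0.18) and muscle (2 of 11, Des at 7.52 ± 0.17 and Actn2 at 6.83 ± 0.28) each had 8 to 10 genes detected on none.

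**Figure D2:**
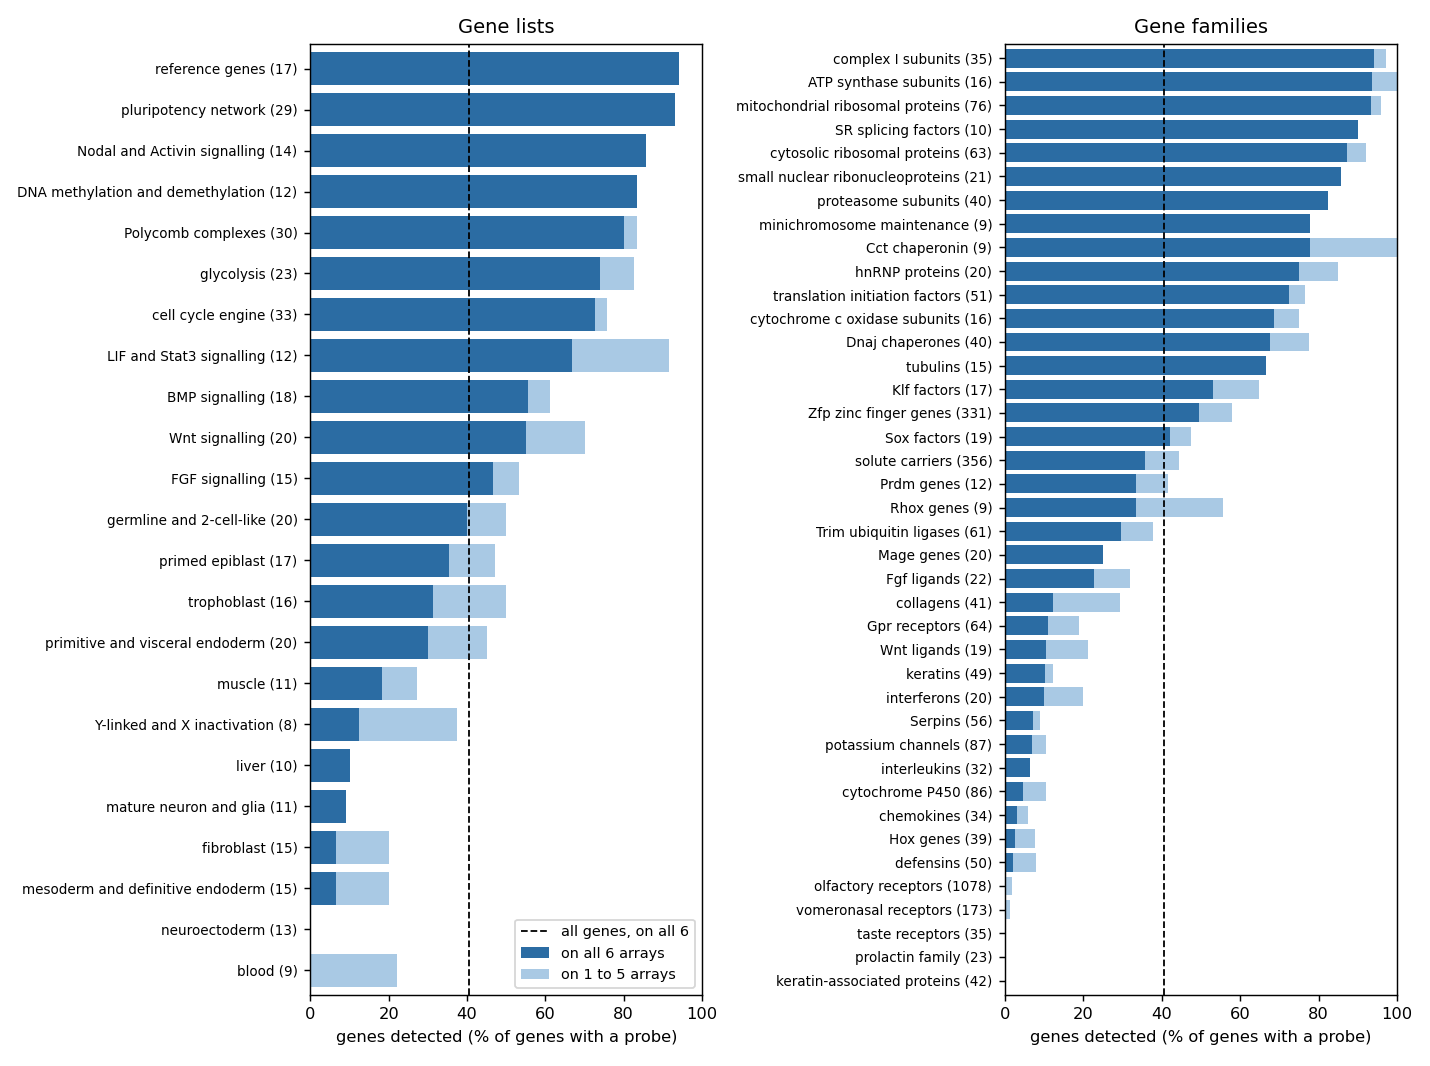
Share of genes detected on all 6 wild-type arrays (dark bars) and on 1 to 5 (light bars), as a percentage of the genes with a probe (horizontal axis, number of genes in parentheses), for gene lists (left) and gene families (right). The dashed line marks the 40.5% of all genes, with 93.1% of the pluripotency network above it and neuroectoderm at 0.

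The signalling lists were read from ligand to target, and their shares on all 6 arrays are given against the 40.5% of all genes. In the LIF pathway 8 of 12 genes (66.7%) were detected on all 6 arrays. The receptor chains were dim, with Lifr at 6.04 ± 0.19 (SD, n = 6) and Il6st (gp130) at 6.73 ± 0.20. The transducer Stat3 stood at 9.13 ± 0.14 and its feedback target Socs3 at 11.10 ± 0.07. Lif itself, supplied in standard ESC medium as a protein, was the 1 gene of the list detected on none.

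In BMP signalling 10 of 18 genes (55.6%) were detected on all 6 arrays. The ligand Bmp4 was the brightest at 11.48 ± 0.09 (SD, n = 6), the receptors Bmpr2 and Bmpr1a followed at 8.38 ± 0.18 and 7.72 ± 0.22, and the target Id1 stood at 10.27 ± 0.27. Bmp2, Bmp7 and the antagonist Nog were detected on none. Nodal and Activin signalling gave a higher share, with 12 of 14 genes (85.7%) on all 6 arrays. Here the ligand Nodal stood beside its antagonists Lefty2, at 10.60 to 11.46, and Lefty1, at 10.62 to 11.06. The coreceptor Tdgf1 (Cripto) stood at 8.86 ± 0.39 and the receptor Acvr2b at 10.64 ± 0.08.

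FGF signalling gave 7 of 15 genes (46.7%) on all 6 arrays, a share near that of all genes. The autocrine ligand Fgf4 stood at 8.42 ± 0.22 (SD, n = 6), and the feedback phosphatase Dusp6 and the Erk-responsive factors Etv4 and Etv5 at 10.49 ± 0.08, 10.31 ± 0.18 and 10.03 ± 0.21. The receptors Fgfr3 and Fgfr4 were detected on none, Fgfr1 on 1 array and Fgfr2 on all 6 at 6.47 ± 0.51. Of 20 Wnt pathway genes 11 (55.0%) were detected on all 6 arrays. Ctnnb1 (beta-catenin) stood at 11.50 ± 0.24, the receptor Fzd5 at 11.25 ± 0.12 and the repressor Tcf7l1 at 10.95 ± 0.23, whereas the target Axin2 was dim at 6.09 ± 0.44.

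Chromatin and cell cycle genes were detected in large part, against 40.5% of all genes on all 6 arrays. Of 12 genes of DNA methylation 10 (83.3%) were detected on all 6 arrays. They were led by Dnmt3l, the catalytically inactive partner of the de novo enzymes, at 13.72 ± 0.12 (SD, n = 6, rank 63). Dnmt3b followed, and Uhrf1, which guides maintenance methylation, at 11.82 ± 0.18. The oxidase Tet1 stood at 10.99 ± 0.11, and Dnmt3a and Tet3 were detected on none. Of 30 Polycomb genes 24 (80%) were detected on all 6 arrays. The subunits of repressive complex 2 were in front, with Mtf2 at 12.76 ± 0.11, Suz12 at 12.62 ± 0.06 and Ezh2 at 11.12 ± 0.11. Bmi1, a subunit of complex 1 in somatic stem cells, was detected on 1 array, while Pcgf6 stood at 10.45 ± 0.12.

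Of 33 genes of the cell cycle engine 24 (72.7%, against 40.5% of all genes) were detected on all 6 arrays. Cyclin D3 (Ccnd3) was the brightest at 12.23 ± 0.17 (SD, n = 6), Cdk4 stood at 11.81 ± 0.10 and cyclin E1 (Ccne1), which drives entry into S phase, at 10.61 ± 0.09. The inhibitor Cdkn2a stood at 5.99 ± 0.28 and Cdkn2b was detected on none. Glycolysis was detected on all 6 arrays for 17 of 23 genes (73.9%). Ldha (lactate dehydrogenase) stood at 13.58 ± 0.07, Pkm (pyruvate kinase) at 13.12 ± 0.09 and the glucose transporters Slc2a3 and Slc2a1 at 12.56 ± 0.08 and 12.49 ± 0.14. The tissue-restricted members Pklr, Pgk2, Slc2a2 and Slc2a4 were detected on none.

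Gene families separated along the same line, again against 40.5% of all genes on all 6 arrays. Complex I subunits (33 of 35, 94.3%), ATP synthase subunits (15 of 16, 93.8%) and mitochondrial ribosomal proteins (71 of 76, 93.4%) were the families with the highest share on all 6 arrays. Cytosolic ribosomal proteins followed at 87.3% (55 of 63), with a median level of 13.74, the highest of the 40 families. Zinc finger genes named Zfp, a large set grouped here by symbol alone, were detected on all 6 arrays in 164 of 331 cases (49.5%). Solute carriers were in 127 of 356 (35.7%) and Prdm genes in 4 of 12 (33.3%).

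At the low end stood families of differentiated tissue, against 40.5% of all genes on all 6 arrays and 52.8% on none. Keratin-associated proteins (42 genes), taste receptors (35) and the prolactin family (23) had no gene detected on any array, and vomeronasal receptors none of 173 on all 6 (2 on 1 to 5). Of 1078 olfactory receptors, 1060 were detected on none and 3 on all 6 (0.278%). The last were Olfr985 at 7.96 ± 0.31 (SD, n = 6), Olfr724 at 6.43 ± 0.14 and Olfr748 at 5.90 ± 0.16, and probes of such large families can also bind related transcripts. Potassium channels were detected on all 6 arrays in 6 of 87 cases (6.90%), led by Kcnk5 at 9.89 ± 0.06. Cytochrome P450 genes gave 4 of 86, led by Cyp2s1 at 8.61 ± 0.17 and Cyp11a1, which starts steroid synthesis, at 7.97 ± 0.18.

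Of 56 serpins 4 (7.14%, against 40.5% of all genes) were detected on all 6 arrays. These included Serpinb6a at 10.91 ± 0.17 (SD, n = 6), Serpinb6c at 10.30 ± 0.50 and Serpinh1, a collagen chaperone, at 8.46 ± 0.42. Of 32 interleukins, Il17d (7.46 ± 0.16) and Il23a (5.80 ± 0.12) were detected on all 6 arrays, of 34 chemokines Ccl25 (6.92 ± 0.18) and of 50 defensins Defa3 (5.79 ± 0.11). Hox genes, the anterior-posterior patterning factors, were detected on none in 36 of 39 cases (92.3%, against 52.8% of all genes). Hoxa13, at 6.25 ± 0.15, was the 1 detected on all 6. Base composition differed between these families as well. CG-rich starts made up 80.8% of cytosolic ribosomal protein genes and none of 910 olfactory receptor, 153 vomeronasal receptor and 38 keratin-associated genes, and of these last 63.2% held TATAAA in its window. Composition did not follow detection in every set. CG-rich starts made up 42.1% of 19 pluripotency network genes and 83.3% of 12 neuroectoderm genes, against 48.8% of all genes. For 15 Wnt ligands, of which few were detected, the share was 73.3%.

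The class of a gene and its chromosome were read in the same way. Of 18396 protein-coding genes 41.4% were detected on all 6 arrays, of 417 long noncoding RNA genes 12.9%, and of 138 transcribed pseudogenes 24.6%. By chromosome the share ran from 33.6% on chromosome 6 to 47.8% on chromosome 5, with 34.1% on X. On the mitochondrial chromosome 7 of 8 genes were detected on all 6 arrays and on Y 1 of 19.

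The highest levels belonged to the machinery of translation. Of the 25 highest genes, 11 encode ribosomal proteins (Rplp1, Rpl41, Rpl9, Rps2, Rps9, Rps12, Rps29, Rpl38, Rpl35, Rps4x and Rpl37), from Rplp1 at 14.79 to Rpl37 at 14.24 ± 0.07 (SD, n = 6). Eef1a1 stood at 14.56 ± 0.05. Tuba1b was second of all genes at 14.63 to 14.66, Dppa5a next to it at 14.61 ± 0.04, and Atp5b, the catalytic beta subunit of ATP synthase, stood at 14.40 ± 0.05. Ybx1, a protein that packages mRNA, the cytokine and tautomerase Mif, the prolyl isomerase Ppia and the chaperone Hspa8 lay between 14.25 and 14.38.

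A further 5 of the 25 are histone H2A genes (H2ac24, H2ac20, H2ac10, H2ac13 and H2ac7, at 14.29 to 14.43). They are near-identical copies and Ubb-ps is a pseudogene of ubiquitin B, so their probes may read each other or the parent gene, and these 6 positions are uncertain. Of the 24 gaps between neighbours in this order, 4 exceeded the larger SD of the pair, and the median gap was 0.012 against a median SD of 0.054. Most of the 25 therefore cannot be put in order. Rplp1 had the brightest probe on every array, where quantile normalization gives the same value by construction, so that its SD of 0 is not a measure of stability.

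The 6 arrays differed little for most genes. Among 7707 genes whose brightest probe was detected on all 6 arrays, the median SD was 0.145 on the log2 scale, with 0.063 and 0.319 as the 5th and 95th percentiles. The median range was 0.38, and 176 genes (2.28%) had a range over 1, a factor of 2. The SD declined with level, from a median of 0.188 in the dimmest of 5 equal groups of genes to 0.106 in the brightest. Families of the core machinery are bright and lay a little below this last value. Their median SDs were 0.085 for cytosolic ribosomal proteins, 0.095 for proteasome subunits and 0.097 for complex I. Wider spreads were those of Rhox homeobox genes (0.38 over 3 genes), serpins (0.37 over 4), germline and 2-cell-like genes (0.35 over 8) and trophoblast genes (0.32 over 5).

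**Figure D3:**
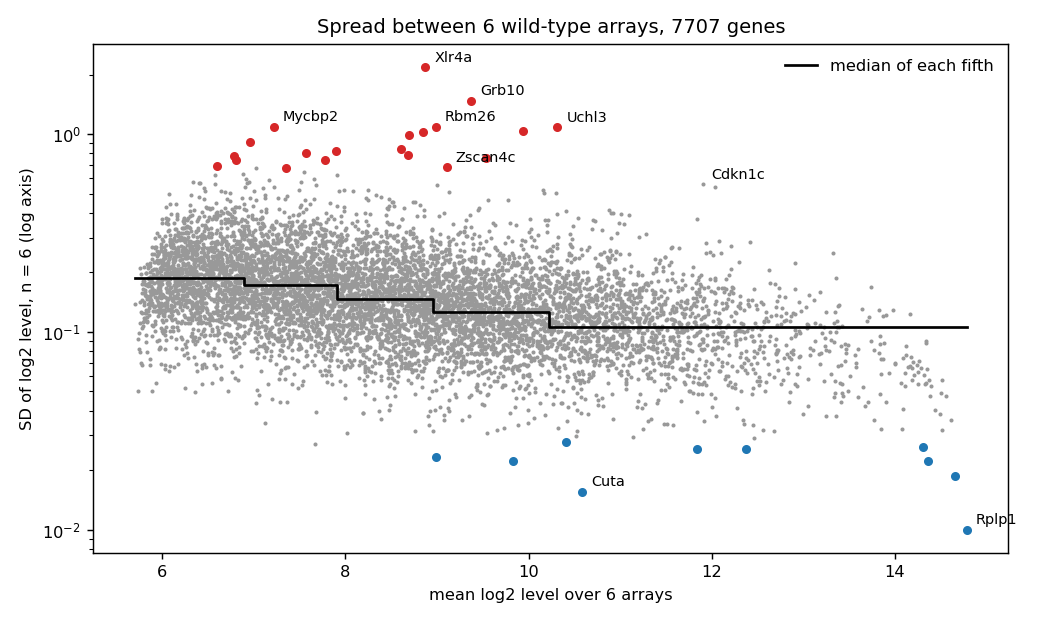
SD of the log2 level over the 6 wild-type arrays (vertical log axis) against the mean level (horizontal axis) for 7707 genes, with the 20 largest SDs in red, the 10 smallest among brighter genes in blue, and the median in each of 5 equal groups by level as a black line. The line descends from 0.188 to 0.106, Xlr4a stands highest at 2.18, and Rplp1, whose SD is 0, is drawn at 0.01.

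Of genes above the median level, the smallest SDs after Rplp1 were those of Cuta, at 10.57 to 10.61, and Tuba1b. The lowest and highest values of Tuba1b, 14.63 and 14.66, were also taken by Dppa5a on single arrays. The SD of Tuba1b thus partly reflects a rank near the top, where quantile normalization sets the values. Usp22, a deubiquitinase of the SAGA complex, ran from 9.80 to 9.86, Zw10, a kinetochore protein, from 8.96 to 9.01, and Polr2h, a subunit shared by the RNA polymerases, from 11.81 to 11.88. Mrpl17, Rps12, Ppia and Nudt16l1 completed the 10. These small SDs belong to single probes. The second detected probe of Polr2h had an SD of 0.216, that of Usp22 0.132, that of Zw10 0.077 and that of Cuta 0.069. Among reference genes Ppia ran from 14.27 to 14.34, with 14.12 to 14.30 on its second probe, whereas B2m (7.94 ± 0.26 (SD, n = 6)), Hprt (12.15 ± 0.19) and Rplp0 (10.02 ± 0.30) varied more.

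Array 1 deviated most from the gene means. It correlated with the other arrays across the 7707 genes at 0.983 to 0.991, whereas the pairs of the other 5 arrays lay between 0.988 and 0.996. Its highest correlation was with array 5 and its lowest with array 4. Arrays 5 and 6 correlated with each other at 0.994 and with arrays 2, 3 and 4 at 0.988 to 0.990. Pairs among arrays 2, 3 and 4 lay between 0.993 and 0.996. The SD of its deviations from the gene means was 0.217 against 0.146 to 0.167. Without it the median SD of all genes was 0.128. The first principal component held 46.2% of the variance between the arrays, with scores of 15.7, -5.50, -11.1, -12.0, 6.26 and 6.61 on arrays 1 to 6. Arrays 1, 5 and 6 thus had positive scores and arrays 2, 3 and 4 negative ones. Genes are not independent replicates, and the labels give no batch that could be set against these scores.

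The most variable gene was Xlr4a, an X-linked lymphocyte-regulated gene of a repeated cluster. Its level was 10.90, 7.77, 7.38, 6.00, 9.56 and 11.61 on arrays 1 to 6, a range of 5.61 on the log2 scale. Arrays 1, 5 and 6 were high and array 4 was close to the lowest detected levels. Near-identical copies in the cluster may be read by the same probe.

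Zscan4c, a zinc finger gene known from the 2-cell-like state, was also among the 20 largest SDs, at 9.97, 9.25, 8.72, 7.99, 9.44 and 9.27 on arrays 1 to 6. AF067061 was at 8.50, 6.98, 6.49, 5.70, 7.12 and 6.95, and Gm428 at 8.96, 7.93, 7.55, 6.53, 8.35 and 8.10. All 3 were highest on array 1 and lowest on array 4. Tcstv3, chosen after its values were seen, was at 7.68 on array 1 and 5.11 on array 4 and was detected on 5 arrays. Zscan4 genes are near-identical copies, so Zscan4c may stand for the cluster. Of the 20 genes, 9 were highest on array 1 and 9 lowest on array 4, where 25.5% and 14.4% of all 7707 genes were. Variable genes are the closer comparison. Of the 176 genes with a range over 1, 70 were highest on array 1 and 46 lowest on array 4. Dpp4, a membrane peptidase (7.62 to 9.52), Prex2, a Rac activator (5.71 to 7.65), and Tnfrsf22, a decoy receptor (8.27 to 10.53), were also highest on array 1 and lowest on array 4. Over the 8 detected genes of the germline and 2-cell-like list the median deviation was 0.31 on array 1 and -0.31 on array 4. Over the 27 pluripotency genes it was -0.04 and -0.06. Without array 4, Zscan4c, Gm428 and Tnfrsf22 were no longer among the 20 largest SDs. The same held for Zscan4c and AF067061 without array 1.

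**Figure D4:**
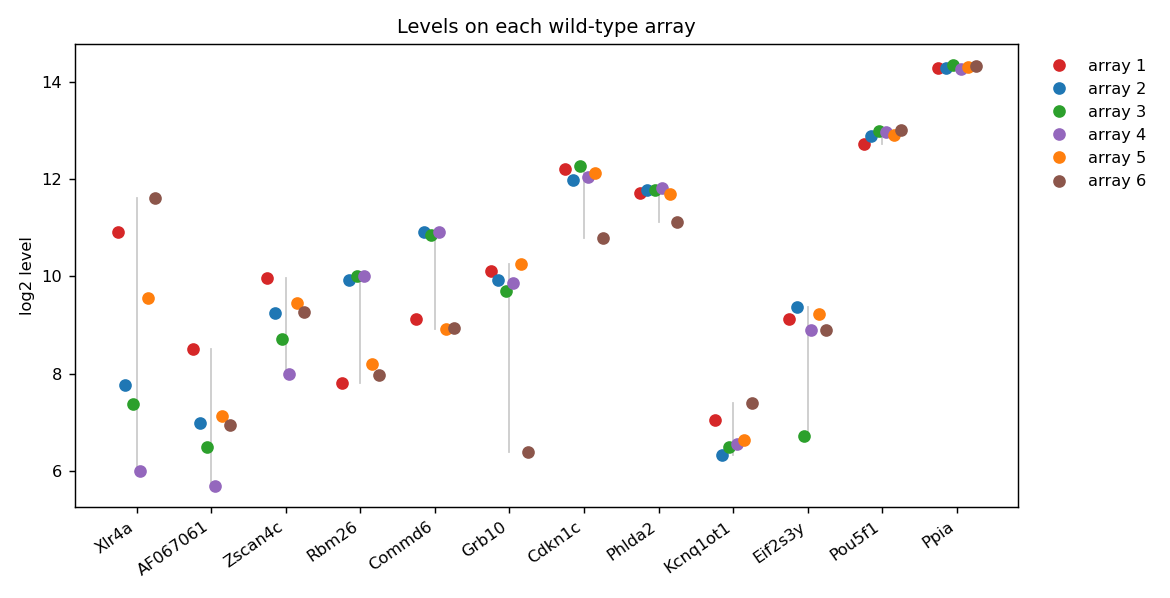
Log2 level (vertical axis) on each of the 6 wild-type arrays, 1 coloured point an array and a grey line for the range, for 10 variable genes and, for comparison, Pou5f1 and Ppia. Rbm26 and Commd6 take low values on arrays 1, 5 and 6, Grb10, Cdkn1c and Phlda2 on array 6, and Eif2s3y on array 3, while Ppia stays between 14.27 and 14.34.

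Several neighbouring genes on chromosome 14 varied together. Rbm26, an RNA-binding protein, was at 7.81, 9.91, 10.006, 10.005, 8.21 and 7.97 on arrays 1 to 6, and its second probe at 6.86, 9.10, 9.04, 9.28, 6.73 and 6.85. Commd6 was at 9.12, 10.90, 10.85, 10.92, 8.93 and 8.94. Uchl3, a deubiquitinase, and Mycbp2, a ubiquitin ligase, lie between them on the chromosome. Uchl3 was at 9.51, 11.36, 11.17, 11.35, 9.43 and 9.08 and Mycbp2 at 6.45, 8.10, 8.28, 8.24, 6.12 and 6.12. For each of these 4 genes arrays 1, 5 and 6 held the 3 lowest values. They were picked for their large SDs, and not all of their neighbours moved with them. Dis3, close to them, went the other way, at 7.74, 7.31, 6.63, 6.98, 7.89 and 7.64.

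Detected genes were divided along each chromosome into 759 blocks of 10 neighbours, and the median deviation of a block was taken on each array. The range of these medians over the 6 arrays was 0.15 for the median block and 0.28 at the 95th percentile. It exceeded 0.5 in 3 blocks, and these were consecutive on chromosome 14. The block from Piwil2 to Dok2 was at 0.28, -0.28, -0.24, -0.23, 0.17 and 0.36 on arrays 1 to 6. The next 2 blocks, from Rb1 to Gtf2f2 and from Tsc22d1 to Naa16, had the opposite sign on every array, at -0.22, 0.25, 0.31, 0.33, -0.35 and -0.35 in the first of them. The blocks after these, from Mtrf1 to Bora and from Dis3 to Abcc4, had ranges of 0.47 and 0.44. The block from Dis3 to Abcc4 holds Rbm26, Commd6, Uchl3, Mycbp2 and Klf5. Its medians were -0.28, 0.01, 0.13, 0.16, 0.002 and -0.10 on arrays 1 to 6. Chromosome 14 held 28 of the 200 largest SDs (14%) with 3.36% of the genes, and its median SD was 0.176 against 0.136 to 0.153 on the other autosomes and X. Over the whole of chromosome 14 the median deviation was between -0.01 and 0.02 on each array. Klf5 stands beside Commd6 in the order of detected genes and was at 13.43, 13.001, 13.10, 13.25, 13.59 and 13.59.

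**Figure D5:**
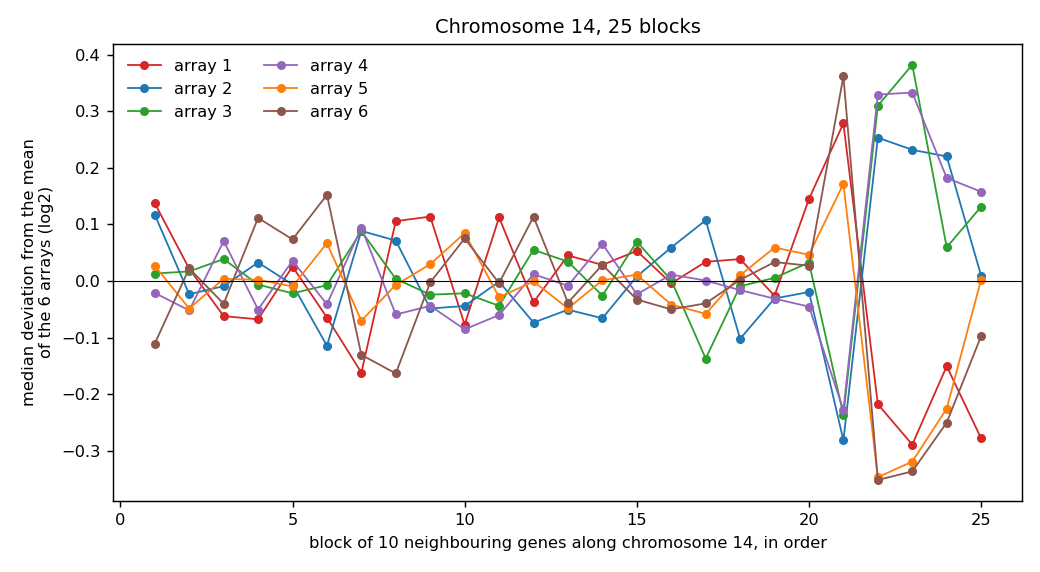
Median deviation from the 6-array mean on the log2 scale (vertical axis) in 25 consecutive blocks of 10 neighbouring detected genes along chromosome 14 (horizontal axis, block number), 1 line an array. The lines lie between -0.16 and 0.15 up to block 20, part in block 21, where arrays 1, 5 and 6 are above 0, and lie on the other side of 0 in blocks 22 and 23.

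Several imprinted genes, which are expressed from 1 parental allele, had their extreme value on array 6. Grb10, an adaptor that restrains growth factor signalling, was at 9.69 to 10.26 on arrays 1 to 5 and 6.39 on array 6. Cdkn1c, a cyclin-dependent kinase inhibitor, was at 11.98 to 12.27 on arrays 1 to 5 and 10.78 on array 6, and its neighbour Phlda2, a regulator of placental growth, at 11.70 to 11.82 and 11.12. The noncoding RNA Kcnq1ot1, which is transcribed from the other allele of the same cluster, was highest on array 6 at 7.39 against 6.33 to 7.05.

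Other imprinted genes were then looked up, with the values of these 4 already seen. Of 12 that were detected on all 6 arrays, 2 were lowest on array 6 (Slc22a18 and Rtl1) and 4 highest (Mest, Peg10, Impact and Igf2r). Over all genes, 15.2% were lowest and 16.4% highest on array 6. The share of lowest values is thus near that of all genes, and the share of highest values is above it, over 12 genes only. Slc22a18 is also a close neighbour of Cdkn1c and Phlda2. Mest, expressed from the paternal allele, was highest there on both of its brightest probes (8.67 and 8.73), as was Peg10 (6.67). Impact, also paternally expressed, was at 10.56 to 10.97 on arrays 1 to 5 and 11.40 on array 6, and its second probe at 7.57 to 8.23 and 9.03. Igf2r, expressed from the maternal allele, was highest there on both probes as well (8.29 and 7.87). Dlk1, Igf2 and Peg3 did not have an extreme value on array 6. Neither the dose of the alleles nor their methylation was measured.

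The Y-linked translation factor Eif2s3y was at 8.89 to 9.37 on 5 arrays and 6.71 on array 3. Uty, another Y-linked gene, was dim and also lowest on array 3, at 5.30 against 5.58 to 6.01, and was detected on 5 arrays. Xist, the RNA that silences an X chromosome in female cells, was detected on none. Other Y-linked genes of the list, Kdm5d, Usp9y, Zfy1 and Sry, were detected on none, so that Eif2s3y was the 1 gene of the Y chromosome detected on all 6 arrays.

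A second probe gave a further reading for part of these genes. Among 2675 genes with a second probe detected on all 6 arrays, both probes were lowest on the same array in 43.6% of the 535 genes with the largest SDs and 22.4% of the 535 genes with the smallest. For the highest array the shares were 34.6% and 27.5%. Of the 20 largest SDs, 3 genes had such a probe. Rbm26 was low on arrays 1, 5 and 6 with both and Prex2 lowest on array 4 with both, whereas the second probe of Tnfrsf22 was lowest on array 1 (7.54), where the first was highest (10.53). H13, a signal peptide peptidase that was noticed for its opposing probes, was at 7.75, 6.93, 7.03, 7.66, 7.82 and 7.68 with the brightest probe and at 6.88, 8.10, 7.85, 7.30, 6.86 and 7.12 with the next. Where these probes lie on the transcripts was not examined.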

How the data were processed

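Total RNA was hybridized to Illumina Mouse WG-6 v2 bead arrays. Per the file headers, the deposited scanner table holds 2 columns per array, the linear signal intensity of each probe and its detection p-value, and the authors had not normalized or background corrected either. A second deposited table holds the intensity after rank-invariant normalization by the authors, and was used as an alternative only. It equalled the scanner signal less a constant, times a scale factor, on each wild-type array (medians 6.88 to 9.67, with 25.4 to 36.6% of values below 0), and was floored at 16 before log2. The genome build of the probe annotation is not given in the sources used here.

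The deposited intensity of all 16 arrays was processed with neqc of limma 3.58.1 in R 4.3.3 (background from the detection p-values, offset 16, quantile normalization, log2), and the 6 wild-type columns were kept. Of 45281 probes, 34885 had 1 gene symbol, 18 several and 10378 none here. Symbols were updated through the gene ID, which matched a RefSeq table (GRCm38.p6) for 34807 probes. That table also gave chromosomes and gene order. Promoters of chromosome 18 were not used here. The probe with the highest mean over the 6 arrays stood for a gene. Means, SDs, ranks, principal components and promoter composition were computed in Python 3.11.15 with numpy 2.4.6 and pandas 2.3.3, checked on simulated arrays, and figures were drawn with matplotlib 3.10.9. Values are descriptions of 6 arrays with no test between groups. Single arrays set apart were found by Dixon's ratio. The number of arrays limits the precision.

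Genes were named by a fixed rule: the 25 highest, the 20 largest and 10 smallest SDs (smallest only above the median level), up to 6 brightest members of each of 23 lists, up to 4 brightest members of families with under 10% on all 6 arrays, up to 4 undetected members of families with over 90%, and Prdm4. Other members of the lists are named as examples, and imprinted genes, Tcstv3 and H13 were chosen after their values were seen. The members, lists and families were chosen with earlier results of these data known. Alternatives were other detection thresholds, scalings and gene summaries, and leaving out arrays.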

Additional observations from a re-analysis of the deposited data

Results flagged for a closer look

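Among 173 named genes that were detected on all 6 arrays, 11 had 1 array set apart from the other 5, by a gap that exceeded the 95% critical value of Dixon's ratio of gap to range for 6 samples. The same held for 5.90% of all 7707 genes, and chance gives about 1 in 20, so the number of such genes is close to that over all genes. The gaps on array 6 were those of Grb10 (6.39, the next value being 9.69), Cdkn1c (10.78) and Phlda2 (11.12), which are imprinted, and those of Cdk1 (10.94), Rpl41 (14.40) and H2ac20 (14.26), all on the low side. Eif2s3y was low on array 3 at 6.71. Gsk3b (7.88) and Ccnd1 (10.97) were low on array 1. Dnd1 was low on array 2 at 9.07 and H2ac7 high on array 2 at 14.41. For Rpl41, H2ac20 and H2ac7 the whole range was below 0.2 on the log2 scale.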

How the results depend on the processing

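No paired analysis was possible because no result here comes from a comparison of groups. Genes detected on all 6 arrays numbered 8531 at a detection threshold of 0.05, 6892 at 0.001 and 7729 to 7769 without 1 array, against 7711, and genes detected on none 8402, 11028 and 10096 to 10204, against 10070. All 63 lists and families kept their side of the median of all genes under each alternative except the primed epiblast without array 3. The 25 highest genes were the same under each scaling and without any 1 array, but 17 of 25 remained when the mean of the detected probes stood for a gene. Of the 20 largest SDs, 17 to 20 remained under each alternative except without array 4, where 14 did and Zscan4c, Gm428, Gm5662, Tnfrsf22, Slc9a3r2 and Crxos left. AF067061 and Zscan4c left them without array 1 and on arrays 3 to 6 alone, Grb10 without array 6 and Eif2s3y without array 3. The median SD, 0.145 as reported, was 0.1575 in the deposited values, 0.1554 with normexp and median scaling, 0.1258 with an offset of 50, 0.1211 without background correction and 0.1198 on arrays 3 to 6 alone, and 0.1276 (without array 1) to 0.1471 without 1 array. In the deposited values 81 of 473 named genes shifted by over 5 percentile points in rank. The next alternatives were added after the data were seen. Blocks of neighbouring genes over 0.5 numbered 3 or 4, all on chromosome 14, except 5 in the deposited values, 4 of them on chromosome 14. The median CG ratio of genes detected on all 6 arrays was 0.77 to 0.79 under each alternative.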
